A study of Mus musculus with 6 samples.

Results

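The 8 genes described here encode surface mucins and sialomucins, and are those named *Muc13*, *Muc1*, *Cd34*, *Podxl*, *Emcn*, *Cd164*, *Selplg* and *Spn* among 34745 genes in the deposited tables. They were chosen by name, with the KO and WT values of the same libraries known, so those values are given as a description and no test of a member is drawn from them. All 8 were found, each under a single identifier. Of these, 7 passed the filter on low counts and *Muc1* did not.

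Mucins and sialomucins are membrane proteins whose extracellular part is densely decorated with O-linked glycans, often capped by sialic acid. The sugar coat holds neighbouring cells apart, and, where the glycans carry the right sialic acid and fucose groups, it is also the ligand that selectins on endothelium and platelets bind. In blood stem cells several of these proteins are better known as surface markers. CD34 itself is a sialomucin, and the sort used here took cells without it.

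The libraries are bulk RNA-seq of haematopoietic stem cells (HSCs) sorted from the bone marrow of adult C57BL/6 mice as LSKs that were CD150+, CD34- and CD48-. LSK cells lack lineage markers and carry Sca1 and cKit. The 3 WT samples carry the floxed allele without Cre (labelled Med23floxp/flowp), and the 3 KO samples carry Mx1-cre as well (Mx1-cre;Med23floxp/flowp), so both groups share the floxed *Med23* alleles. Mx1-cre is driven by an interferon-responsive promoter that also acts outside HSCs, and the study's methods induced it with poly(I:C). Whether the WT mice of these libraries received poly(I:C), and whether a sample was 1 mouse or a pool, is not given in the sources used here. *Med23* encodes a subunit of Mediator, the complex that links transcription factors to RNA polymerase II.

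Between 3537269 and 8131344 reads were counted per library, and 3 counts, the smallest signal taken as detected, equal between 0.369 and 0.927 normalized CPM, the count scaled to a common library size. Values of single libraries are given throughout in the order of replicates 1, 2 and 3. For *Med23* they were 47.6, 70.8 and 24.1 CPM among the WT and 31.6, 29.8 and 36.8 CPM among the KO libraries. WT replicate 3, as labelled, was thus below every KO library, and the log2 fold changes of the tested members are also given without it. The summed counts of 4 Y-linked genes were at most 1 in replicate 3 of both groups and at least 1036 in the other 4 libraries. *Xist* was at 4819 and 7853 counts in replicate 3 of WT and KO and at most 111 in the other 4, so replicate 3 had the pattern of female cells in both groups. The 10 markers of sorted HSCs summed to between 2335 and 2700 CPM in WT and between 2118 and 2414 CPM in KO, and of the genes that define the gate *Kit* was at 570.0 CPM or more in every library and *Cd48* at 3.44 CPM or less. *Slamf1*, which encodes CD150, was at 21.02 to 96.8 CPM in WT and 27.5 to 58.2 CPM in KO. *Ly6a*, which encodes Sca1, was at 152.1 to 216.3 CPM in WT and 81.4 to 150.6 CPM in KO, and it and *Kit* were lower in every KO library. The 8 skeletal muscle markers, led by *Myh3*, summed to between 116.4 and 285.3 CPM in WT and between 3.44 and 6.92 CPM in KO, and 3 of them were among the 9 genes that edgeR called. Erythroid markers, led by *Epor*, summed to between 17.5 and 73.9 CPM in WT and between 6.73 and 11.9 CPM in KO, and lymphocyte markers, led by *Nkg7*, to between 19.7 and 40.2 CPM and between 13.6 and 21.9 CPM. The part of this RNA in any member's value was not tested. In bulk samples fewer cells of a kind and less RNA per cell cannot be told apart.

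*Muc13* (ENSMUSG00000022824, GRCm38 chromosome 16 from 33794037 to 33819934, plus strand) encodes a transmembrane mucin best known from the gut epithelium, and it was the member that stood furthest apart between the groups relative to its spread. The 250 bases before its upstream RefSeq start (GRCm38.p6, chr16:33793787-33794036, plus strand) are printed because *Muc13* leads the results, and the 250 bases before the start of *Cd34* (chr1:194938571-194938820, plus strand) because among the tested members it had the highest fold change in KO. Capitals mark matches to any of 7 motifs searched on both strands, which were GATA (GATAA), AP-1 (TGACTCA), RUNX (TGTGGT), ETS (CGGAAG), a GC box (GGGCGG), EGR (GCGTGGGCG) and a TATA box (TATAAA). Matches to the EGR motif and the GC box can share bases.
Muc13: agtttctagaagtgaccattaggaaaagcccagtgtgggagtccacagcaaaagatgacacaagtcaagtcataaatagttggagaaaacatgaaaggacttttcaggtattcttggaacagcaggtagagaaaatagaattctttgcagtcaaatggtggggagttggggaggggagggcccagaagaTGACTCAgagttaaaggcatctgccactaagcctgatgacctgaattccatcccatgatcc
Cd34: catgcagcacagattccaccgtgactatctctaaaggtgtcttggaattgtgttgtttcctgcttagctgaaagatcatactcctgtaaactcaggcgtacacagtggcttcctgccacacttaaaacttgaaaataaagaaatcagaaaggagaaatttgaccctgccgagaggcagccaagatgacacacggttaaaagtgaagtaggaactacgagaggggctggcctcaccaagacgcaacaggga

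The *Muc13* window held the AP-1 letters, which 4.46% of 32851 windows of this length hold, 61 bases before the start, and it had no CpG. The window before a further RefSeq start of *Muc13*, not printed, also held AP-1 letters, 179 bases before that start. The *Cd34* window held none of the 7 motifs and 6 CpGs. Of the 6 members with an entry, *Cd164* had the richest window in G and C (71.6%, against a median of 52.4% over all windows) with 4 GC-box matches, *Muc1* had a TATA-box match 31 bases and GC-box matches 49 and 91 bases before its start, and *Emcn* and *Spn* had no match. The GC box was in 2 of the 7 member windows and in 32.7% of all windows, and the TATA box in 1 and in 12.4%. *Podxl* and *Selplg* had no entry. The motif EGR, found in 0.536% of all windows, was in no member's window.

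The reads counted for *Muc13* numbered 1843, 2460 and 906 in the WT libraries and 453, 568 and 652 in the KO libraries. Normalized for depth these were 377.9, 302.3 and 280.0 CPM in WT and 91.8, 103.4 and 131.9 CPM in KO. Every KO library was below every WT library, and the lowest WT value belonged to the library labelled WT replicate 3. The means were 320.1 ± 51.3 CPM in WT and 109.0 ± 20.7 CPM in KO (SD, n = 3 per group). This is a level 2.94 times as high in WT, or -1.55 on the log2 scale with a standard error of 0.23. Over all genes tested, 2.54% had a log2 fold change as low or lower. Leaving out each library in turn moved the value between -1.71 and -1.41, and it was -1.64 without WT replicate 3 and -1.79 without replicate 3 of both groups.

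An annotated antisense gene, *Gm15657*, overlaps *Muc13*, and the use of strand in the counting is not given in the sources used here, so reads of the pair may not be separable where they overlap. *Gm15657* was listed at 48, 124 and 5 counts in WT and 36, 28 and 23 counts in KO, far below *Muc13* in each library. Of the 5 epithelial markers, *Cdh1* and *Krt19* had 0 counts in every library and *Epcam* was at 6.08 CPM or less. The sum of the 5 was between 196.2 and 265.8 CPM in WT and between 101.4 and 197.3 CPM in KO, nearly all of it from *Krt18*.

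**Figure D1:**
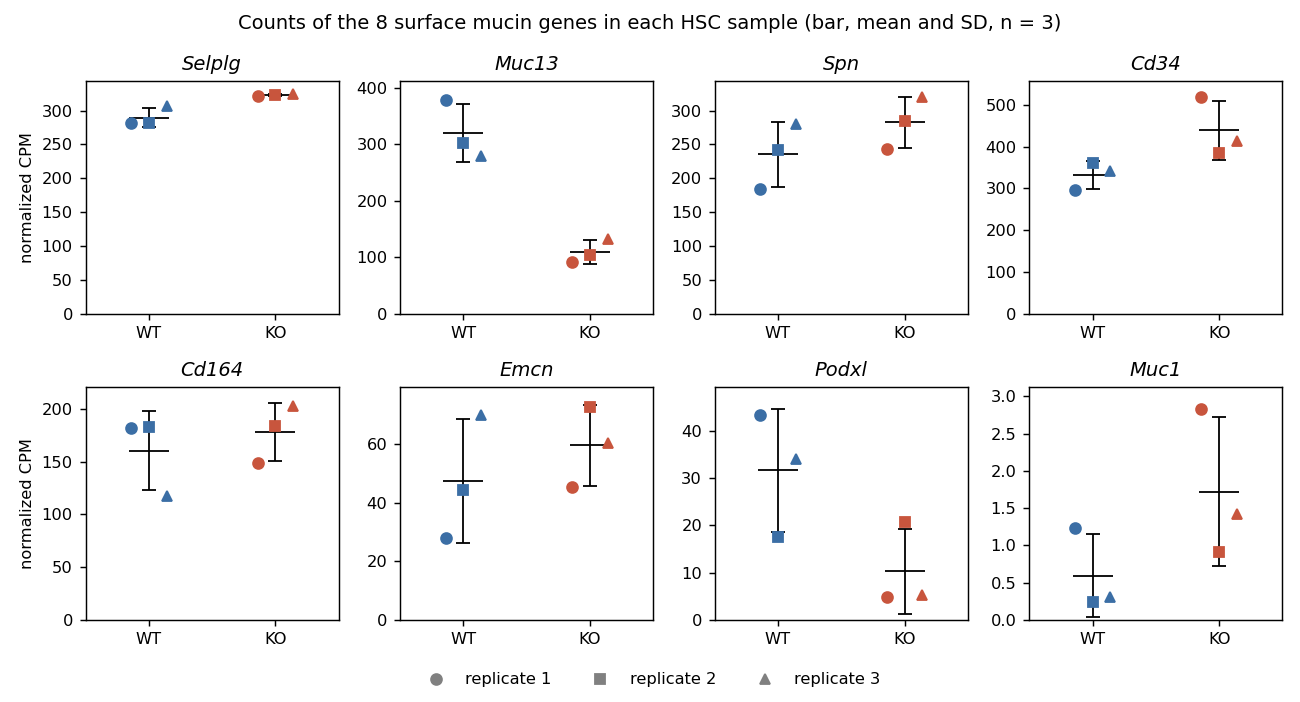
Normalized CPM (vertical axis, linear from 0) of each member in the 3 WT (blue) and 3 KO (red) samples, with the replicate number given by the symbol and the mean and SD (n = 3) as black bars. Muc13 lies between 280.0 and 377.9 CPM in WT and between 91.8 and 131.9 CPM in KO, while Selplg and Cd34 are higher in every KO sample and the other members overlap between groups.

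The CD34 family is represented by *Cd34* and *Podxl*, whose proteins share their general build, a mucin domain on a single membrane-spanning chain. *Cd34* (ENSMUSG00000016494, chromosome 1 from 194938819 to 194961279) was counted 1442, 2930 and 1109 times in WT and 2565, 2112 and 2048 times in KO. Its normalized values were 295.7, 360.1 and 342.7 CPM in WT and 519.7, 384.4 and 414.4 CPM in KO. Although the cells were sorted as CD34-, the transcript was therefore among the more abundant in every library, above 88.0% of tested genes in WT and 91.5% in KO by its mean level per length.

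For *Cd34* every KO library was above every WT library, by the least between KO replicate 2 and WT replicate 2. The means were 332.8 ± 33.3 and 439.5 ± 71.0 CPM (SD, n = 3), which makes a log2 fold change of 0.40 (standard error 0.20). It stayed between 0.27 and 0.49 when each library was left out, and was 0.42 without WT replicate 3. The antisense gene *Gm16897*, which overlaps it, had at most 24 counts in any library. Of the other genes that mark cells outside the gate, *Cd48* had 10, 28 and 0 counts in WT and 0 in each KO library. *Dntt*, of early lymphoid cells, had 2, 52 and 0 counts in WT and 0 in each KO library, and *Flt3*, a receptor of multipotent progenitors, was at 42.9 to 79.7 CPM in WT and 44.0 to 106.8 CPM in KO.

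*Podxl* (ENSMUSG00000025608, chromosome 6 from 31519488 to 31563981, minus strand) encodes podocalyxin, known from kidney podocytes, vascular endothelium and early blood cells. It had 212, 143 and 110 counts in WT and 24, 114 and 26 counts in KO, or 43.5, 17.6 and 33.996 CPM against 4.86, 20.7 and 5.26 CPM. KO replicates 1 and 3 were the lowest libraries, but KO replicate 2 was above WT replicate 2, so the groups overlapped. The log2 fold change was -1.61 with the largest standard error of the 7 tested members, 0.65. It was -2.63 without KO replicate 2, -1.56 without WT replicate 3 and -1.23 without replicate 3 of both groups.

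*Emcn* (ENSMUSG00000054690, chromosome 3 from 137341067 to 137432185) encodes endomucin, a sialomucin of venous and capillary endothelium that is also on HSCs. Its values were 28.1, 44.4 and 69.8 CPM in WT and 45.4, 72.8 and 60.5 CPM in KO, and the groups overlapped. The highest WT library was the one labelled WT replicate 3, and the log2 fold change of 0.33 (standard error 0.38) was 0.71 without it and 0.07 without WT replicate 1. The estimates of *Emcn* and *Podxl* had opposite signs, though both genes overlapped between the groups. Within a library the level per length of *Emcn* over that of *Podxl* was 0.566, 2.21 and 1.80 in WT and 8.18, 3.07 and 10.1 in KO. *Podxl* had only 24 and 26 counts in KO replicates 1 and 3.

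Because *Cd34*, *Podxl* and *Emcn* are also endothelial genes, 10 endothelial markers were read beside them. Their sum was between 545.8 and 599.0 CPM in WT and between 578.5 and 652.4 CPM in KO, and *Tie1*, the marker with the most counts, accounted for most of it. *Emcn* is itself 1 of the 10, and without it the other 9 summed to between 475.9 and 554.6 CPM in WT and between 518.0 and 607.0 CPM in KO. Among the defining endothelial genes, *Cdh5* had 0 counts in the 3 WT libraries and 0, 0.364 and 6.68 CPM in KO. *Cldn5*, a tight junction gene chosen after its values were seen, was at 10.5 to 11.1 CPM in WT and at 0 counts in KO. It was the only 1 of 6 tested endothelial markers whose groups did not overlap, beside 12.4% of all genes tested. Its adjusted p was 0.18 with edgeR's quasi-likelihood test and 3.2e-05 with DESeq2. *Pecam1*, at 54.5 to 102.6 CPM in WT and 80.5 to 123.2 CPM in KO, had a log2 fold change of 0.45, and *Tie1* of 0.03. The part of endothelial RNA in the values of *Podxl* was not tested.

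**Figure D2:**
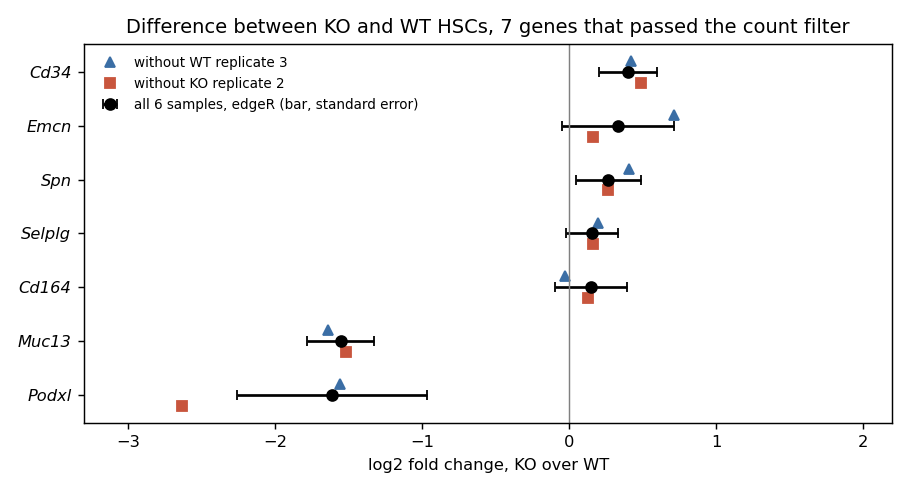
Log2 fold change of KO over WT (horizontal axis) for the 7 members that passed the count filter, with the edgeR estimate and its standard error in black, the value without WT replicate 3 as blue triangles and without KO replicate 2 as red squares. Muc13 stays near -1.6 in all of them, Podxl moves from -1.61 to -2.63 without KO replicate 2, and Emcn from 0.33 to 0.71 without WT replicate 3.

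The leukocyte sialomucins varied less. *Selplg* (ENSMUSG00000048163, chromosome 5 from 113818536 to 113832644, minus strand) encodes PSGL-1, the main ligand of P-selectin on blood cells. It was at 281.5, 281.2 and 306.3 CPM in WT and at 321.1, 322.5 and 324.8 CPM in KO. Every KO library was above every WT library, but the difference was small, with a log2 fold change of 0.16 (standard error 0.18, which takes in the spread of genes with like counts). Without WT replicate 3 the log2 fold change of *Selplg* was 0.20. The SD among the KO libraries was 1.85 CPM around a mean of 322.8 CPM, the tightest group of any member.

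*Spn* (ENSMUSG00000051457, chromosome 7 from 127132232 to 127137823, minus strand) encodes CD43, the long rod-shaped sialomucin of leukocytes. It was at 184.1, 241.4 and 280.0 CPM in WT and 243.7, 284.5 and 319.5 CPM in KO, with a log2 fold change of 0.27 (standard error 0.22). WT replicate 3 lay within the KO values, and in both groups replicate 1 was lowest and replicate 3 highest. The log2 fold change of *Spn* was 0.41 without WT replicate 3. *Cd164* (ENSMUSG00000019818, chromosome 10 from 41519414 to 41531048) encodes endolyn, a sialomucin of progenitor adhesion that acts with the chemokine receptor CXCR4. Its values of 181.7, 182.7 and 117.1 CPM in WT and 148.7, 184.0 and 202.6 CPM in KO overlapped, and its log2 fold change of 0.15 (standard error 0.24) was -0.03 without the library labelled WT replicate 3 and -0.12 without replicate 3 of both groups.

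*Muc1* (ENSMUSG00000042784, chromosome 3 from 89229057 to 89233381), the classical transmembrane mucin of epithelia, was close to the detection limit. It had 6, 2 and 1 counts in WT and 14, 5 and 7 counts in KO, too few to pass the filter. The KO values of 2.84, 0.910 and 1.42 CPM overlapped the WT values of 1.23, 0.246 and 0.309 CPM through WT replicate 1. In the fit without a filter its log2 fold change was 1.5 with a standard error of 1.65, so a difference was not detectable at this depth.

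Among the 8 members, *Muc13* was lower in every KO library, *Cd34* and *Selplg* were higher in every KO library, and 5 overlapped. Of the 12513 genes that were tested, 12.4% had no overlap between the groups, 6.25% higher and 6.15% lower in KO. In edgeR's quasi-likelihood fit over these genes 0 of the 7 tested members had an adjusted p under 0.05, where 0.0719% of all genes did (0.016% higher and 0.0559% lower in KO), and 2 (*Muc13* and *Podxl*) had an unadjusted p under 0.05, where 5.71% of all genes did. With DESeq2 1 of the 7, *Muc13*, passed, where 0.96% of all genes did (0.4% higher and 0.56% lower in KO). The members were picked from this contrast, so nothing is read from these counts. The median log2 fold change of the 7 was 0.16, beside -0.0054 for all genes tested.

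Levels of different genes were compared per length, as FPKM, which divides counts by gene length and library total. In WT, *Muc13* was the most abundant member, at 91.5, 71.4 and 60.4 FPKM, and in KO, at 22.5, 25.4 and 30.0 FPKM, it ranked 5 of the 8. The mean placed it above 95.8% of tested genes in WT and above 83.5% in KO. *Selplg* led in KO at 57.1 ± 2.18 FPKM and was next to *Muc13* in WT at 49.5 ± 0.839 FPKM (SD, n = 3). *Spn*, *Cd34* and *Cd164* had group means between 31.1 and 45.3 FPKM, *Emcn* 6.999 and 9.24 FPKM and *Podxl* 5.43 and 1.85 FPKM in WT and KO, and *Muc1* was below 1.10 FPKM in every library.

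Ordered by the mean of log2(FPKM + 0.1) over the 6 samples, the members ran *Selplg*, *Muc13*, *Spn*, *Cd34*, *Cd164*, *Emcn*, *Podxl* and *Muc1*. Of the first 5, each neighbouring pair differed on average by less than the SD of its within-library differences. *Selplg* was nevertheless above *Spn* in 6 of 6 libraries, by 0.44 ± 0.211 on the log2 scale (SD, n = 6), and above *Cd34* and *Cd164* in 6 of 6, by 0.46 ± 0.216 and 0.71 ± 0.310, while *Spn*, *Cd34* and *Cd164* did not differ from each other beyond this spread. *Cd164* was above *Emcn* in 6 of 6 libraries, by 2.05 ± 0.648 on the log2 scale (SD, n = 6). *Emcn* was above *Podxl* in 5 of 6, by 1.473 ± 1.465, and *Podxl* above *Muc1* in 5 of 6, by 2.69 ± 2.01. In WT alone the step from *Emcn* to *Podxl* was 0.38 ± 1.04 (SD, n = 3), within its spread. The position of *Muc13* differed between the groups, as it was above *Selplg* in all 3 WT libraries and below it in all 3 KO libraries. This restates the difference of *Muc13* given above. *Selplg* minus *Muc13* was -0.57 ± 0.278 in WT and 1.14 ± 0.258 in KO (log2 scale, SD, n = 3), each beyond its spread within the group.

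**Figure D3:**
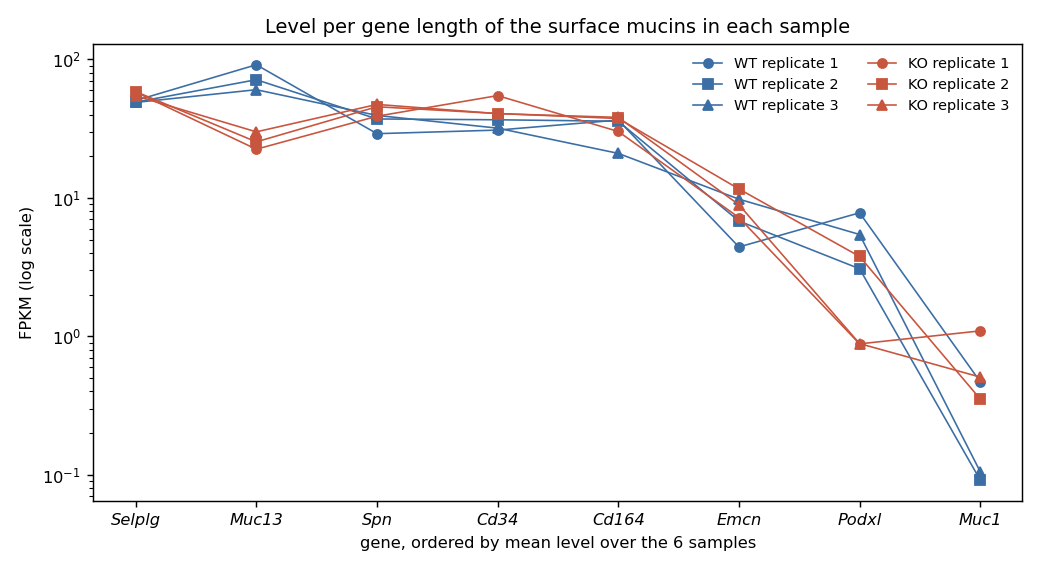
Level per gene length (FPKM, log scale) of the 8 members in each of the 3 WT (blue) and 3 KO (red) samples, with a line joining the values of a library and the members in the order of their mean. The first 5 members lie between 20.96 and 91.5 FPKM, Muc13 is the point at which blue and red lines part, and Podxl and Muc1 spread most.

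A ratio within a library does not depend on how libraries are scaled. *Muc13* relative to *Cd34* was 2.97, 1.95 and 1.90 in WT and 0.410, 0.624 and 0.739 in KO, so *Muc13* exceeded *Cd34* per length in every WT library and in no KO library. Of the summed FPKM of the 8 members, *Muc13* made up 36.5, 29.7 and 27.9% in WT and 10.5, 11.4 and 13.6% in KO. The sum itself was 251.1, 240.0 and 216.9 FPKM in WT and 213.6, 223.3 and 220.9 FPKM in KO, with WT replicate 3 inside the KO range. The share of *Cd34* was 12.3, 15.3 and 14.7% in WT and 25.7, 18.2 and 18.4% in KO.

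**Figure D4:**
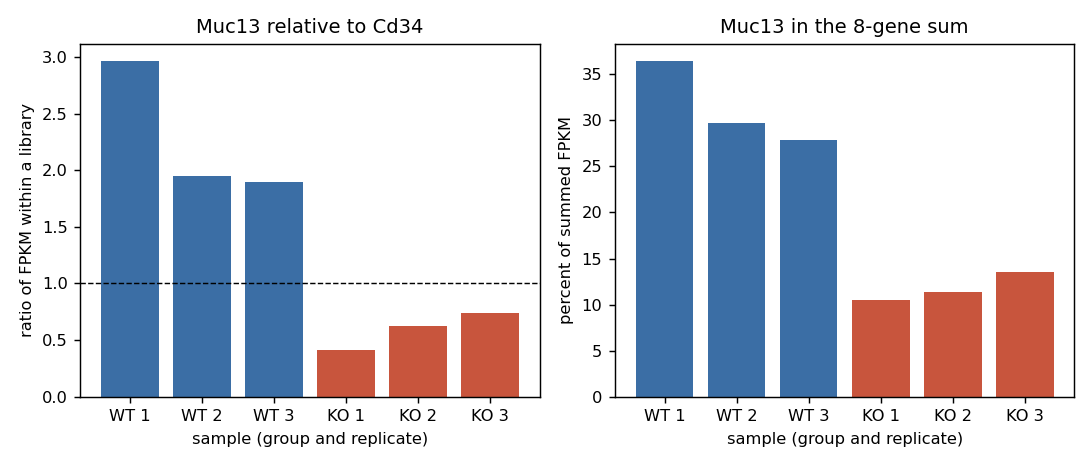
Ratio of Muc13 to Cd34 FPKM (left, with a dashed line at 1) and share of Muc13 in the summed FPKM of the 8 members in percent (right) for each WT (blue) and KO (red) sample. The ratio is at least 1.90 in the WT samples and at most 0.739 in the KO samples, and the share at least 27.9% and at most 13.6%.

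The genes whose profile over the 6 samples was nearest to that of *Muc13* were *Phlda2*, *Zfp827*, *Neu3*, *Ptar1* and *Arhgap35*, out of 10136 genes with a mean of at least 50 counts. Nearness was the root mean square difference of log2(CPM + 0.5) after centring each gene, which was 0.230 for *Phlda2* and 0.263 for *Arhgap35*. The profile contains the difference between the groups, so all 5 were lower in every KO library, which the choice brings with it. *Neu3* encodes a sialidase that removes sialic acid, mainly from gangliosides, and stood at 32.3 ± 4.78 CPM in WT and 14.9 ± 3.35 CPM in KO (SD, n = 3). *Phlda2*, an imprinted gene, stood at 20.6 ± 3.64 and 6.90 ± 2.94 CPM.

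The genes that build, bind or anchor these proteins were read from 6 lists of 121 symbols, of which 73 genes were tested. By edgeR's quasi-likelihood test 0 of the 73 passed at an adjusted p under 0.05, beside 0.0719% of all genes tested, and at an unadjusted p under 0.05 there were 8 higher and 3 lower in KO, beside 5.71% of all genes in either direction. With DESeq2 2 passed, both higher, *Cd68* and *Selp*, beside 0.4% of all genes higher. The groups did not overlap for 14 genes higher and 2 lower in KO, beside 6.25% and 6.15% of all genes. A higher estimate in KO was found for 49 of the 73 genes, a larger share than the 49.5% of all genes tested, and this difference was not tested.

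The enzymes that start O-glycans on serine and threonine and build their cores had a median log2 fold change of 0.63 over 15 tested genes, and of 0.50 without WT replicate 3, beside -0.0054 and -0.0047 for all genes. In this list 12 of 15 had a higher estimate in KO, beside 49.5% of all genes, and 5 were higher in every KO library, beside 6.25%. *C1galt1c1*, which encodes the chaperone of the core 1 enzyme, was at 14.1, 15.6 and 4.02 CPM in WT and 33.0, 25.3 and 27.7 CPM in KO (log2 fold change 1.33, standard error 0.54). *Galnt11*, which encodes an initiating transferase, was at 65.8, 82.1 and 30.0 CPM in WT and 112.0, 138.7 and 116.2 CPM in KO (1.04, standard error 0.35). *Gcnt1*, which encodes the core 2 branching enzyme on which selectin ligands of PSGL-1 are built, was at 63.4, 32.4 and 33.4 CPM in WT and 92.0, 69.5 and 95.7 CPM in KO (0.99, standard error 0.34). For *C1galt1c1* and *Galnt11* the library labelled WT replicate 3 was the lowest of all. *Galnt6*, the tested initiating transferase with the highest mean in WT, was chosen after its values were seen. It was at 256.3, 277.0 and 212.3 CPM in WT and 251.2, 104.3 and 89.8 CPM in KO. Its groups overlapped, and its estimate was lower in KO (-0.74, standard error 0.36).

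The 19 tested enzymes and transporters of sialylation, fucosylation and sulfation had a median of 0.10, with 10 of them higher. *Tpst2*, a tyrosine sulfotransferase whose product is needed on PSGL-1 for P-selectin binding, was lower in every KO library, at 327.2, 242.5 and 399.0 CPM in WT and 204.4, 219.3 and 239.8 CPM in KO. *Chst2* and *St6galnac6* were higher in every KO library, *Chst2* by 0.96 and *St6galnac6* by 0.67 on the log2 scale. None of these 3 passed with either tool.

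The 7 tested selectins, Siglecs and other receptors had a median of -0.58, with 3 higher. *Selp*, which encodes P-selectin, the receptor of PSGL-1 and a megakaryocyte gene as well, was at 128.8, 110.1 and 83.4 CPM in WT and 193.9, 190.7 and 267.3 CPM in KO (log2 fold change 1.01, adjusted p = 0.36 with edgeR's quasi-likelihood test and 0.027 with DESeq2). The 5 megakaryocyte markers, led by *Itga2b*, summed to between 151.9 and 221.6 CPM in WT and between 288.6 and 369.7 CPM in KO, and the part of this in *Selp* was not tested. *Lgals3*, which encodes galectin-3, had 44, 124 and 8 counts in WT and 5, 0 and 2 in KO, and was chosen after its values were seen.

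Of the 11 tested other mucin-like genes, 9 had a higher estimate, with a median log2 fold change of 0.53, and of 0.50 without WT replicate 3. *Cd68*, which encodes the lysosomal mucin macrosialin, had a log2 fold change of 1.55 (adjusted p = 0.42 with edgeR's quasi-likelihood test and 0.042 with DESeq2). *Cd24a*, a small mucin-like surface protein, was at 362.5, 417.2 and 205.8 CPM in WT and 713.1, 435.1 and 599.0 CPM in KO, and *Cd99l2* at 17.4 to 27.51 CPM and 27.52 to 33.3 CPM, both higher in every KO library. The 7 granulocyte and monocyte markers, led by *Lyz2*, summed to between 403.7 and 541.2 CPM in WT and between 414.7 and 681.3 CPM in KO, with *Mpo* at 175.4 CPM in KO replicate 3 and at 4.72 CPM or less elsewhere.

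The cytoplasmic partners and the membrane proteases had medians of 0.21 and 0.22 over 13 and 8 tested genes. *Msn*, which encodes moesin, a linker of sialomucin tails to actin, was at 487.7 to 603.5 CPM in WT and 664.5 to 812.1 CPM in KO. *Cxcr4*, the partner of CD164, was chosen after its values were seen and overlapped between groups, at 18.7, 31.6 and 48.5 CPM in WT and 9.12, 7.83 and 25.1 CPM in KO. *Mmp14*, a membrane-type protease, was at 15.9 to 26.3 CPM in WT and 27.8 to 50.2 CPM in KO.

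**Figure D5:**
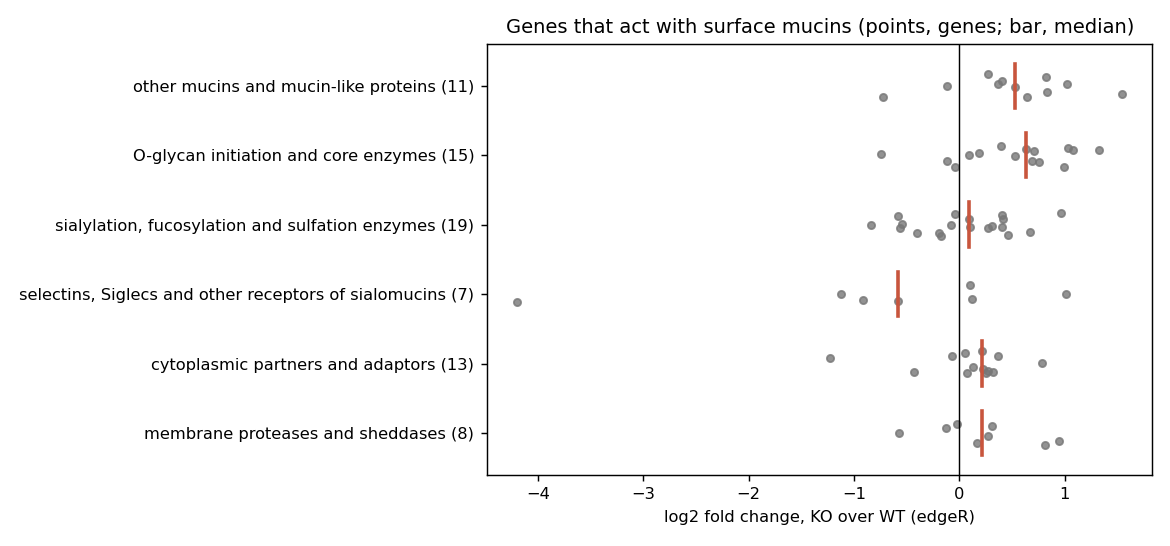
Log2 fold change of KO over WT (horizontal axis, edgeR) for each tested gene of the 6 lists, with the number of genes in brackets and the median as a red bar. The median is 0.63 for the O-glycan enzymes and -0.58 for the selectins, Siglecs and other receptors, where Lgals3, with few counts in KO, is the point at -4.20.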

How the data were processed

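The deposited files hold raw read counts for each gene and the authors' FPKM, that is the same counts over a fixed gene length and the library total (the implied length differed by at most 0.00412% between libraries). The submitters' processing notes name TopHat, HTSeq and mm10; versions, annotation and strand setting are not given in the sources used here. The labels name SMART-Seq v4 amplification and the study's methods a TruSeq kit, and neither describes molecular identifiers, so errors do not cover duplicated reads. Coordinates are from GENCODE M21 (GRCm38), which holds 34267 of the identifiers, and promoters from RefSeq (GRCm38.p6).

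The tests used edgeR 4.0.16 under R 4.3.3, with filterByExpr, TMM scaling and the robust quasi-likelihood test, at a Benjamini-Hochberg adjusted p under 0.05. KO was set over WT in each fold change. Where the labels do not say that samples came from separate animals, p-values measure the spread between these samples only. Alternatives were DESeq2 1.42.0, upper-quartile scaling, other filters, the replicate number as a block, limma 3.58.1 on FPKM with pseudocounts 1 and 0.1, and each sample left out. The fit without replicate 3 of both groups was added after seeing the data. The fits were tested on simulated counts. The members, gene lists and motifs were chosen with earlier results of these data known. Genes named are the members, *Med23*, the antisense genes that overlap a member, *Xist* and the 5 nearest to *Muc13*. List genes are named where past the threshold with edgeR or DESeq2. So are up to 3 per list with the largest change whose groups did not overlap (mean count 50 or more). The genes of the sort gate and the leading marker of each cell type are also named. Others are marked or are defining markers given for their absence. *Flt3*, *Dntt*, *Mpo*, *Cldn5* and *Pecam1* were named outside these rules, with their values seen. A symbol under several identifiers was given to the one with most counts.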

Additional observations from a re-analysis of the deposited data

How the results depend on the processing

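The number of genes past the threshold was 9 in the edgeR fit, 120 with DESeq2 (50 higher and 70 lower), 15 with limma on log2(FPKM + 1) over genes of mean FPKM 1 or more, 5 with the replicate block and between 5 (without WT replicate 1) and 11 when each sample was left out. *Muc13* passed in 4 of 16 fits (DESeq2, upper-quartile scaling, no filter and at least 10 counts in every sample). As the members were picked from this contrast, nothing is read from this tally. Leaving out each sample gave *Podxl* between -2.63 (without KO replicate 2) and -1.27, and *Muc1* was 0.42 on log2(FPKM + 1) against 1.5 on counts without a filter. The lists of other mucin-like proteins and of receptors each had 1 gene past the threshold with DESeq2 and 0 with edgeR. After centring each group, WT and KO samples with one number correlated at 0.17, 0.0324 and 0.17 (mean 0.124, beside -0.0617 for unlike numbers), and 5 of 6 samples correlated best with their own number, which is a hint of pairing. The numbers are not stated to pair animals, so the fit without the block was kept and the block was given as an alternative. Replicate 3 of both groups also shared its Y-linked and *Xist* pattern, and the part of this in the correlations was not tested. The block gave *Muc13* -1.56 and *Podxl* -1.90. All other alternatives kept the member values within 1 SD of the replicates. Counts near 3, as for *Muc1*, limit what could be detected.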
